A study of Mus musculus with 15 samples.

Results

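The transcripts of 10 mouse histone methyltransferases were followed through ribosome profiling of tagged and untagged embryonic stem cells. They are the H3K4 and H3K36 enzymes with long coding sequences: *Kmt2a*, *Kmt2b*, *Kmt2c*, *Kmt2d*, *Kmt2e*, *Setd1a*, *Setd1b*, *Setd2*, *Nsd1* and *Ash1l*. The members were named by gene, and the transcript counted for each was found in the GENCODE M21 annotation. Each matched 1 of the 21727 transcripts in the count table, and all 10 were among the 10085 transcripts that passed the filter on low counts.

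The cells were E14Tg2a.4 mouse embryonic stem cells (mESCs), an established line grown with leukemia inhibitory factor. In *Rps27-FLAG* mESCs (eS27-FLAG in the sample labels) both copies of *Rps27*, a gene of the small ribosomal subunit, carried a C-terminal 3xFLAG tag at the endogenous locus. In *Rps27l-FLAG* mESCs (eS27L-FLAG) the same tag was on its paralog *Rps27l*, and WT clones carried no tag. Each line was represented by 3 clones grown from single cells, and all cells were treated with cycloheximide, which holds ribosomes on the mRNA. The mRNA fragments that ribosomes protect from nuclease (RPFs) were read in 15 libraries, in 5 groups of 3. Total RPFs came from every ribosome of a lysate and were made for the 9 clones, whereas IP RPFs came from the ribosomes that an anti-FLAG antibody pulled down and were made for the 6 clones with a tag. No IP of WT clones was analysed here. The design asks whether the tags alter total RPFs and whether ribosomes that hold Rps27 or Rps27l carry different mRNAs.

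Library totals ranged from 3972152 to 8064166 counts, and the 6 IP libraries (3972152 to 6673935) were mostly smaller than the 9 total libraries (6313827 to 8064166). The counted *Rps27* transcript is listed at 0 in all 15 libraries, so the tagged gene could not be read there, while *Rps27l* had 655 to 1151 counts per library. Of the mESC markers, such as *Pou5f1* and *Nanog*, 10 of 10 passed the filter, against 1 of 10 markers of differentiated derivatives and 1 of 8 fibroblast markers. The 10 members together held 3794 to 10483 counts per library, from 31 counts of *Kmt2e* in 1 IP library to 3920 counts of *Nsd1* in 1 total library.

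Lysine methyltransferases with a SET domain write methyl groups on histone tails. Methylation of H3K4 marks promoters and enhancers of active genes and is written mainly by KMT2A to KMT2D, SETD1A and SETD1B, each in a COMPASS-like complex around a shared core of WDR5, RBBP5, ASH2L and DPY30. Trimethylation of H3K36 is laid down over gene bodies, where it recruits reader proteins and keeps transcribed chromatin in order. In mESCs these marks accompany the pluripotent gene programme and its rearrangement when the cells differentiate.

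*Setd1a* and *Setd1b*, *Kmt2a* and *Kmt2b*, and *Kmt2c* and *Kmt2d* are pairs of paralogs. The deposited counts rest on reads that aligned to 1 place only. The stretches below are the longest runs that each pair shares within its coding sequence (CDS), shown as windows of 28 nt, about the length of a ribosome footprint. Capitals mark the shared run. They come from GENCODE M21 on GRCm38.
Setd1a: ggATGCCCATGTCCTTCCAGATGCAgac
Setd1b: gcATGCCCATGTCCTTCCAGATGCAaac
Kmt2a: ctacGAGAGCAAGATGATGCAGTGcggg
Kmt2b: ctatGAGAGCAAGATGATGCAGTGtgca
Kmt2c: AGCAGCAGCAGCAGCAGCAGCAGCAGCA
Kmt2d: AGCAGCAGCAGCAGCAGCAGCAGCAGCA

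These windows lie in coding exons. They are at chr7:127786191-127786218 (+ strand, exon 8) in *Setd1a* and at chr5:123152253-123152280 (+ strand, exon 7) in *Setd1b*. They are at chr9:44833950-44833977 (- strand, exon 14) in *Kmt2a*, chr7:30580482-30580509 (- strand, exon 15) in *Kmt2b*, chr5:25315778-25315805 (- strand, exon 36) in *Kmt2c* and chr15:98845672-98845699 (- strand, exon 40) in *Kmt2d*. The shared run was 23 nt in the *Setd1a* and *Setd1b* pair and 20 nt in the *Kmt2a* and *Kmt2b* pair, both shorter than the window. *Kmt2c* and *Kmt2d* shared 37 nt of a CAG repeat, so that the window lies wholly inside it. Windows of 28 nt that occurred more than once among all transcripts of the table made up 1.44% of the *Kmt2d* CDS (241 of 16740), 0.546% of *Setd1a* (28 of 5124) and 0.270% of *Setd1b*. In the other 7 members the share was 0.150% or lower, and in *Kmt2a*, *Setd2*, *Nsd1* and *Ash1l* it was 0. The counts of the paralogs could therefore be told apart over nearly all of each CDS.

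The counted transcripts, given here by their GRCm38 positions, have a median CDS of 8109 nt, against 1443 nt over all tested transcripts. *Kmt2d* (chr15:98831672-98871204) and *Kmt2c* (chr5:25273609-25498745), which monomethylate H3K4 at enhancers, have the longest CDSs at 16767 and 14715 nt. *Kmt2a* (chr9:44803355-44881296, 11892 nt) and *Kmt2b* (chr7:30568858-30588726, 8142 nt) bind menin and act at developmental and bivalent promoters. *Setd1a* (chr7:127776670-127800122, 5151 nt) and *Setd1b* (chr5:123142193-123168629, 5958 nt) provide much of the trimethylation of H3K4 at active promoters. *Kmt2e* (chr5:23434441-23504235, 5607 nt) has a SET domain for which no methyltransferase activity of its own is established. Of the H3K36 enzymes, *Setd2* (chr9:110532597-110618633, 7614 nt) adds the third methyl group during transcription elongation, while *Nsd1* (chr13:55209782-55318325, 8076 nt) and *Ash1l* (chr3:88950622-89079375, 8877 nt) dimethylate H3K36.

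Levels between genes were compared as normalized CPM per kb of counted CDS, which is the TMM-normalized CPM (a count scaled to the size of its library) divided by the CDS length without its first 15 and last 5 codons. In the total RPFs of WT clones the H3K36 enzymes lay far apart. *Nsd1* was highest at 58.7 ± 6.54 per kb (SD, n = 3), with 51.9, 65.0 and 59.1 in replicates 1 to 3. *Setd2* followed at 25.0 ± 3.58, with 28.8, 21.7 and 24.3. *Ash1l*, at 2.39 ± 0.540, lay near the bottom. Relative to the 10082 tested transcripts with a known length, whose median was 25.4 per kb, *Nsd1* stood at percentile 70.3, *Setd2* at 49.6 and *Ash1l* at 4.22.

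Among the H3K4 enzymes *Kmt2b* was highest in WT total RPFs at 21 ± 3.75 per kb. *Setd1b* (11.9 ± 0.528), *Kmt2c* (10.6 ± 1.54) and *Kmt2d* (9.33 ± 0.142) lay close together. *Setd1a* followed at 6.26 ± 0.869 and *Kmt2a* at 5.03 ± 0.325, so each of the *Kmt2a*/*Kmt2b* and *Setd1a*/*Setd1b* pairs had 1 member clearly above the other in WT. *Kmt2e* was lowest of all members at 2.06 ± 0.279, percentile 3.02. In the order of WT levels the replicates of *Setd2* and *Kmt2b*, of *Setd1b* and *Kmt2c* and of *Ash1l* and *Kmt2e* overlapped, and those of the other neighbours did not. *Nsd1* and *Setd2* held the first and second place in all 5 groups, and *Kmt2e* and *Ash1l* the last 2.

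**Figure D1:**
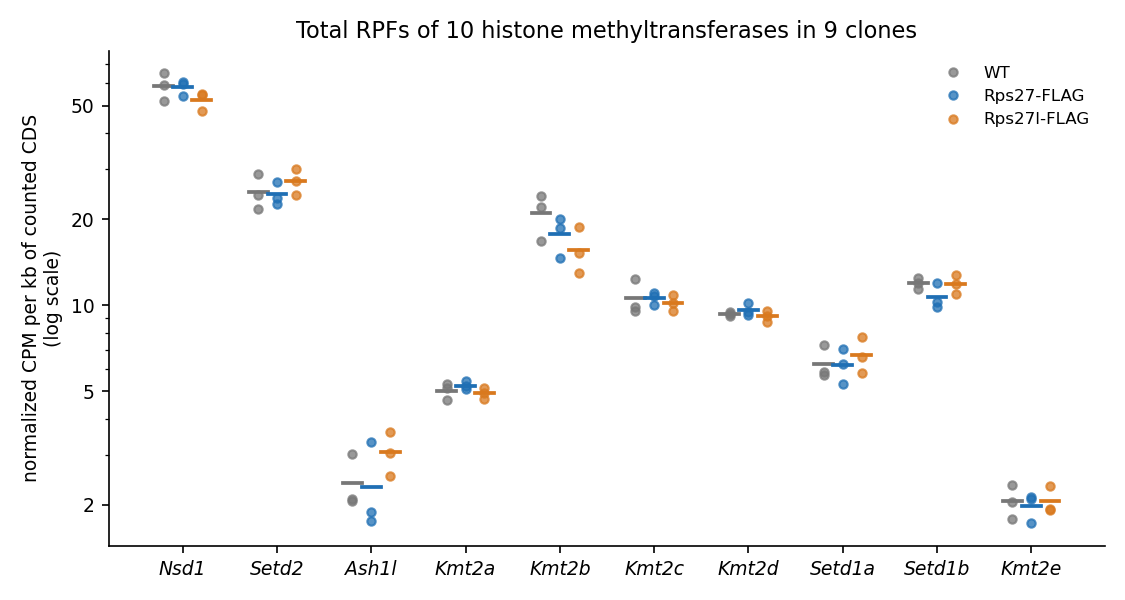
Total RPFs of the 10 methyltransferases as normalized CPM per kb of counted CDS (log scale), 1 point per clone and a bar at the mean of 3 clones, for WT, *Rps27-FLAG* and *Rps27l-FLAG*. *Nsd1* lies near 58.7 in WT and *Kmt2e* near 2.06, and within each gene the points of the 3 lines overlap.

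The tags were next compared with WT in total RPFs. A total RPF level combines the amount of mRNA with the ribosomes on it, and the 2 cannot be told apart without mRNA measurements. In the edgeR quasi-likelihood test 0 of the 10 members passed an adjusted p of 0.05 in *Rps27-FLAG* against WT, and none was below an unadjusted p of 0.05. Over all tested transcripts 0% were called at the adjusted threshold and 2.92% at the unadjusted one. The log2 fold changes were 0.058 for *Kmt2a*, -0.24 for *Kmt2b*, 0.0063 for *Kmt2c*, 0.047 for *Kmt2d*, -0.011 for *Setd1a*, -0.15 for *Setd1b*, -0.058 for *Kmt2e*, -0.027 for *Setd2*, -0.017 for *Nsd1* and -0.035 for *Ash1l*. Their median was -0.02, and for each member the 3 libraries of both lines overlapped. In *Rps27l-FLAG* against WT 0 members passed (0% of all transcripts) and 1 was below an unadjusted p of 0.05 (5.69% of all). The values were -0.032 for *Kmt2a*, -0.42 for *Kmt2b*, -0.049 for *Kmt2c*, -0.024 for *Kmt2d*, 0.10 for *Setd1a*, -0.0076 for *Setd1b*, -0.0031 for *Kmt2e*, 0.13 for *Setd2*, -0.16 for *Nsd1* and 0.36 for *Ash1l*. Between the tagged lines 0 members passed either threshold, where 0% and 5.75% of all transcripts did. The values were -0.090 for *Kmt2a*, -0.18 for *Kmt2b*, -0.055 for *Kmt2c*, -0.071 for *Kmt2d*, 0.11 for *Setd1a*, 0.15 for *Setd1b*, 0.055 for *Kmt2e*, 0.16 for *Setd2*, -0.14 for *Nsd1* and 0.39 for *Ash1l*. voom and DESeq2 also called 0 members in each of these 3 comparisons, which share their libraries.

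*Kmt2b* was the member below an unadjusted p of 0.05. Its total RPFs in *Rps27l-FLAG* were 105, 124 and 152 normalized CPM in replicates 1 to 3. In WT they were 136, 178 and 195, and in *Rps27-FLAG* 119, 151 and 163. The groups overlapped, yet among the libraries of each replicate number, which were pooled for library preparation, WT was highest and *Rps27l-FLAG* lowest. The log2 fold change of *Rps27l-FLAG* against WT was -0.42 (SE 0.17, adjusted p 0.821 in edgeR). With the replicate number as a block it was -0.42 (SE 0.06, adjusted p 0.00539), and *Kmt2b* was the only member called, where 1.06% of all transcripts fell. In *Rps27-FLAG* against WT the blocked value for *Kmt2b* was -0.23 (SE 0.06, adjusted p 0.636). The value without the block ranged from -0.57 to -0.30 when single *Rps27l-FLAG* or WT clones were left out, and its adjusted p from 0.224 to 1.00.

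Several members varied with the replicate number. In all 3 lines *Kmt2b* was lowest in replicate 1 (mean 120 normalized CPM over the lines) and highest in replicate 3 (170). *Setd1a* ran the other way in all 3 lines, with means of 37.3, 31.7 and 28.5 for replicates 1, 2 and 3. *Ash1l* was likewise highest in replicate 1 in every line (29.2, 20.7 and 18.7) and had the widest spread of the members over the 9 clones, with a coefficient of variation of 26.1%. *Kmt2d* (4.16%) and *Kmt2a* (5.02%) varied least, and 3 of the 10 members exceeded the median of 11.3% over all tested transcripts. What differed between the replicate numbers was not tested.

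**Figure D2:**
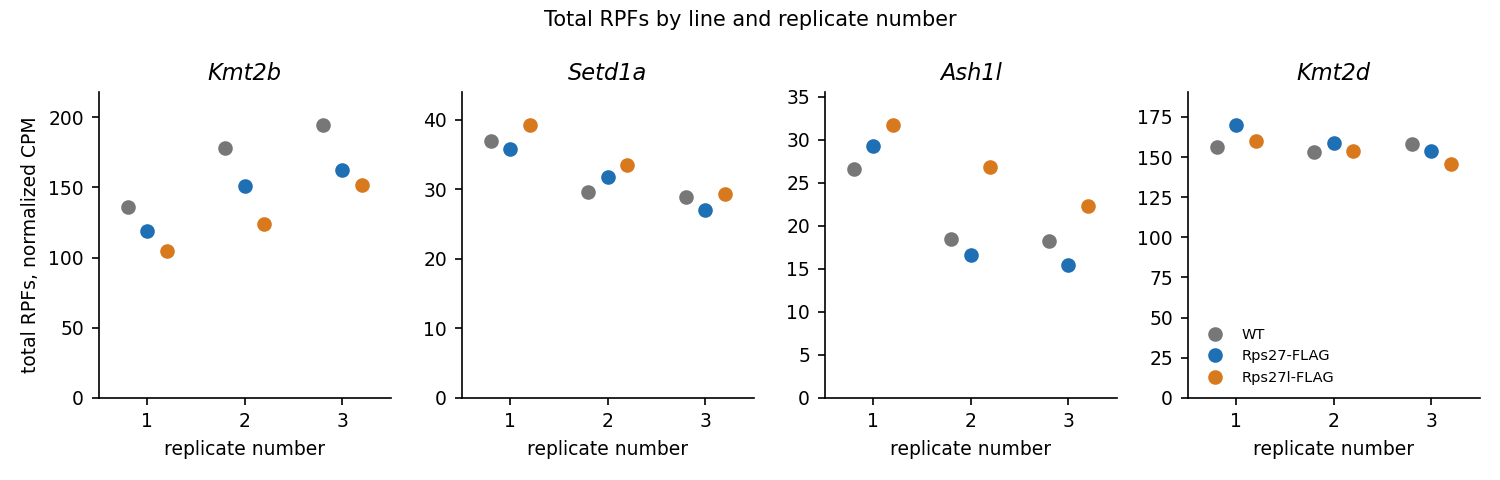
Total RPFs in normalized CPM of *Kmt2b*, *Setd1a*, *Ash1l* and *Kmt2d* by replicate number, 1 point per library, coloured by line. *Kmt2b* was lowest in replicate 1 and *Setd1a* and *Ash1l* were highest there in all 3 lines, while *Kmt2d* stayed between 146 and 170.

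In each tagged line IP RPFs were then set against total RPFs, to show which transcripts were less or more represented on the immunoprecipitated ribosomes. The H3K4 enzymes other than *Kmt2e* summed to 440, 464 and 442 normalized CPM in the *Rps27-FLAG* IP libraries. In the matched total libraries the sums were 617, 622 and 613. In *Rps27l-FLAG* the corresponding sums were 437, 435 and 432 in IP and 594, 591 and 591 in total RPFs. The 3 H3K36 enzymes summed to 508 to 584 in the 6 IP libraries and to 622 to 691 in the matched total libraries. Both sums were lower in every IP library than in every total library.

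*Kmt2a* had the lowest share in the IP RPFs of *Rps27-FLAG*, with 35.8, 36.3 and 36.1 normalized CPM in IP and 60.2, 61.7 and 64.2 in total libraries. The log2 ratio of IP to total in the same clone was -0.75, -0.76 and -0.83, so that the IP level was 58.3% of the total level. The 2 groups lay far apart and the clones within each hardly differed. In *Rps27l-FLAG* its IP values were 37.3, 36.4 and 40.1 and its total values 55.6, 60.6 and 58.5. The IP level was 65.3% of the total level there, again with no overlap. The fitted log2 fold changes were -0.78 (SE 0.08, adjusted p 0.00160) and -0.62 (SE 0.09, adjusted p 0.0148).

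*Setd2* showed a similar gap. In *Rps27-FLAG* it had 128, 110 and 116 normalized CPM in IP and 204, 171 and 179 in total libraries. In *Rps27l-FLAG* it had 144, 153 and 123 in IP and 206, 228 and 185 in total. Every IP value lay below every total value of the line, and the fitted log2 fold changes were -0.64 (SE 0.09, adjusted p 0.00629) and -0.56 (SE 0.10, adjusted p 0.0291).

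The enhancer enzymes *Kmt2d* and *Kmt2c* were also lower in the IP RPFs. *Kmt2d* had 108, 109 and 102 normalized CPM in *Rps27-FLAG* IP against 170, 158 and 154 in total. *Kmt2c* had 115, 113 and 108 against 162, 158 and 147. No clone overlapped the other group, as was the case in *Rps27l-FLAG*, where *Kmt2d* had 95.6 to 106 in IP and 146 to 160 in total and *Kmt2c* 92.0 to 116 and 141 to 159. For *Kmt2d* the fitted values were -0.60 (SE 0.06, adjusted p 0.00242) in *Rps27-FLAG* and -0.57 (SE 0.08, adjusted p 0.0107) in *Rps27l-FLAG*. For *Kmt2c* they were -0.48 (SE 0.06, adjusted p 0.00529) and -0.49 (SE 0.10, adjusted p 0.0379).

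These 4 transcripts were the members that passed an adjusted p of 0.05 in edgeR, and they were the same 4 in both lines. 4 of 10 members fell in *Rps27-FLAG*, where 5.34% of all tested transcripts did, and 4 of 10 fell in *Rps27l-FLAG*, where 2.27% did. No member rose, while 0.327% and 0.833% of all transcripts did. Below an unadjusted p of 0.05 were 6 members in the first line and 8 in the second, against 22.1% and 17.4% of all transcripts. Of the 466 tested transcripts with a CDS at least as long as that of *Setd1a*, the shortest member, 174 fell in the first line and 107 in the second, so that calls among long transcripts of other genes were common as well. The members' median log2 fold changes were -0.44 and -0.52, those of the 466 long transcripts -0.40 and -0.33 and those of all tested transcripts -0.01 and -0.03. The 4 calls also came from voom and from DESeq2. Without clone 2c3 or 2c4 (replicates 2 and 3 of *Rps27-FLAG*) 0 members passed, with 4 below an unadjusted p of 0.05 in each fit and lowest adjusted p of 0.118 and 0.114. Without clone 4a2 or 4a3 of *Rps27l-FLAG* 0 passed, with 8 and 7 below an unadjusted p of 0.05 and lowest adjusted p of 0.136 and 0.324. Without clone 2b12 (replicate 1 of *Rps27-FLAG*) 5 members passed, the 4 and *Kmt2b*. Without clone 4b7 of *Rps27l-FLAG* the same 4 passed. The shares of all transcripts that passed in these refits are not given here, so the counts have no baseline. The log2 fold changes of these 4 members stayed negative in each of these fits.

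The other members gave smaller or more variable ratios. *Nsd1*, which had the most counts, differed least after *Setd1a*. Its log2 ratios were -0.15, -0.15 and -0.09 in the *Rps27-FLAG* clones and -0.16, -0.21 and -0.18 in the *Rps27l-FLAG* clones. All 6 were below 0, and the fitted values were -0.13 (SE 0.08, adjusted p 0.373) and -0.18 (SE 0.07, adjusted p 0.25). *Setd1a* had ratios of -0.08, 0.04 and 0.09 in *Rps27-FLAG* and of -0.11, -0.16 and -0.02 in *Rps27l-FLAG*. It was the only member with clones on both sides of 0, and its fitted values were 0.01 (SE 0.13, adjusted p 0.98) and -0.10 (SE 0.14, adjusted p 0.799). *Setd1b* had fitted values of -0.25 (SE 0.11, adjusted p 0.222) and -0.31 (SE 0.09, adjusted p 0.107), and *Kmt2b* of -0.40 (SE 0.15, adjusted p 0.171) and -0.35 (SE 0.17, adjusted p 0.349).

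*Kmt2e* and *Ash1l* had the fewest counts. *Kmt2e*, with 31 to 54 counts in IP libraries, had ratios of -0.46, -0.26 and -0.20 in *Rps27-FLAG* and of -0.77, -0.48 and -0.70 in *Rps27l-FLAG*. Its fitted values were -0.31 (SE 0.20, adjusted p 0.404) and -0.67 (SE 0.18, adjusted p 0.0985). *Ash1l*, with 54 to 124 counts in IP libraries, had ratios of -0.71, -0.76 and -0.26 in *Rps27-FLAG* and of -0.68, -0.49 and -0.58 in *Rps27l-FLAG*. Its values of -0.59 (SE 0.30, adjusted p 0.300) and -0.58 (SE 0.17, adjusted p 0.123) lay close to those of *Kmt2d* but had wider errors than *Kmt2d*.

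**Figure D3:**
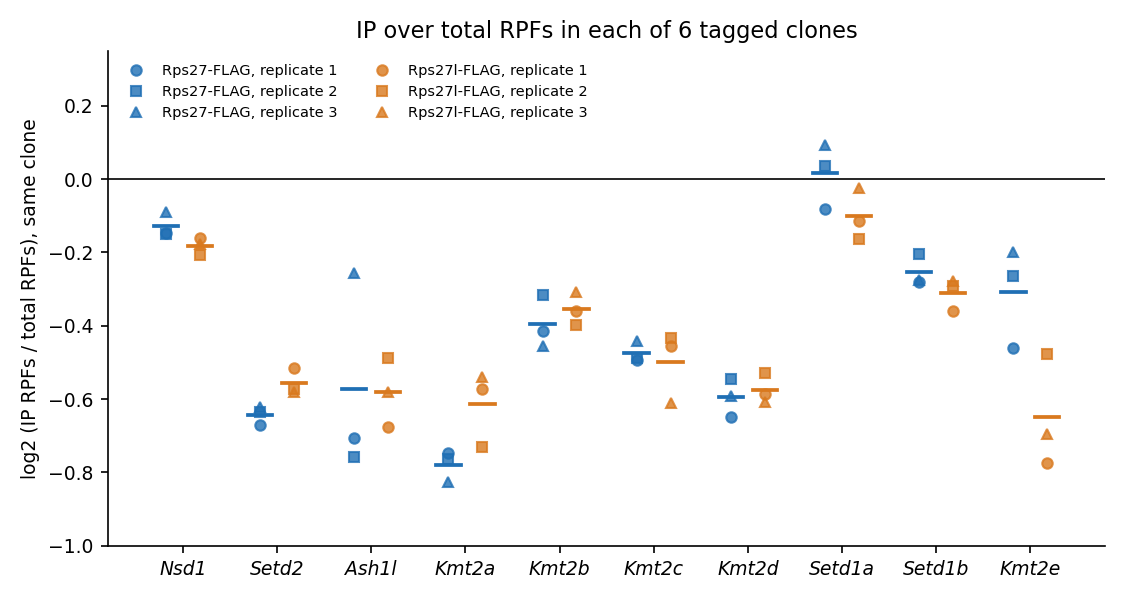
The log2 ratio of IP RPFs to total RPFs of the same clone for each methyltransferase, with the 3 clones of *Rps27-FLAG* and of *Rps27l-FLAG* as separate symbols and bars at their means. *Kmt2a* reaches -0.83 in 1 *Rps27-FLAG* clone, *Nsd1* stays between -0.21 and -0.09 in all clones, and *Setd1a* lies around 0.

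Each IP library has a total library from the same clone. With the clone as a block 8 of 10 members fell in *Rps27-FLAG*, all but *Setd1a* and *Kmt2e*, where 22.9% of all transcripts did. In *Rps27l-FLAG* 9 of 10 fell, all but *Setd1a*, where 19% of all did. Among the 466 long transcripts the blocked fit gave 345 and 326 that fell. *Nsd1*, for one, was called at -0.13 (SE 0.03, adjusted p 1.03e-04) in *Rps27-FLAG* and at -0.18 (SE 0.03, adjusted p 1.09e-06) in *Rps27l-FLAG*. Libraries without overlap between IP and total RPFs were found for 4 members in *Rps27-FLAG* (17% of all transcripts lay wholly lower) and for 7 in *Rps27l-FLAG* (14.2%). Of the 466 long transcripts 264 lay wholly lower in *Rps27-FLAG* and 241 in *Rps27l-FLAG*, so this was common among long transcripts of other genes as well.

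Within a clone the related enzymes could be set side by side, as a description without a test. *Kmt2a* had the lower ratio of the *Kmt2a* and *Kmt2b* pair in 6 of 6 clones, by 0.21 to 0.45 on the log2 scale. *Setd1b* lay below *Setd1a* in 6 of 6 clones and *Kmt2d* below *Kmt2c* in 5 of 6. *Setd2* lay below *Nsd1* in 6 of 6 clones, by 0.36 to 0.53. The CDSs of *Setd2* and *Nsd1* are of similar length (7614 and 8076 nt). In the other pairs the member named as lower has the longer CDS. The lengths are 11892 nt for *Kmt2a* and 8142 for *Kmt2b*, 5958 for *Setd1b* and 5151 for *Setd1a*, and 16767 for *Kmt2d* and 14715 for *Kmt2c*.

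Across transcripts the IP effect moved with CDS length. Over all 10082 tested transcripts with a known length the Spearman correlation of the log2 fold change with CDS length was -0.56 in *Rps27-FLAG* and -0.53 in *Rps27l-FLAG*. Over the 10 members it was -0.66 and -0.35. With the GC content of the CDS the correlation was 0.07 and 0.03 over all transcripts. These are descriptions across transcripts of the same libraries. The median log2 fold change went from 0.14 for CDSs under 1000 nt to -0.58 for those of 10000 nt and more in *Rps27-FLAG*, and from 0.09 to -0.43 in *Rps27l-FLAG*.

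Set against their own length class, the members spread to both sides. Of the 62 transcripts with a CDS of 10000 nt or more, the interquartile range of log2 fold changes was -0.78 to -0.35 in *Rps27-FLAG* and -0.58 to -0.26 in *Rps27l-FLAG*. *Kmt2c* and *Kmt2d* lay inside this range in both lines. *Kmt2a* lay at its lower bound in the first (-0.78) and below it in the second (-0.62). Among the 106 transcripts of 7500 to 10000 nt the interquartile range was -0.70 to -0.20 in *Rps27-FLAG* and -0.49 to -0.24 in *Rps27l-FLAG*. *Nsd1* lay above it in both lines, and *Setd2* lay inside it in the first (-0.64) and below it in the second (-0.56). *Ash1l* likewise lay inside it in the first (-0.59) and below it in the second (-0.58), and *Kmt2b* lay inside it in both. *Setd1a* lay above the interquartile range of the 333 transcripts of 5000 to 7500 nt in both lines, *Setd1b* lay inside it in both, and *Kmt2e* inside it in *Rps27-FLAG* and below it in *Rps27l-FLAG*.

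**Figure D4:**
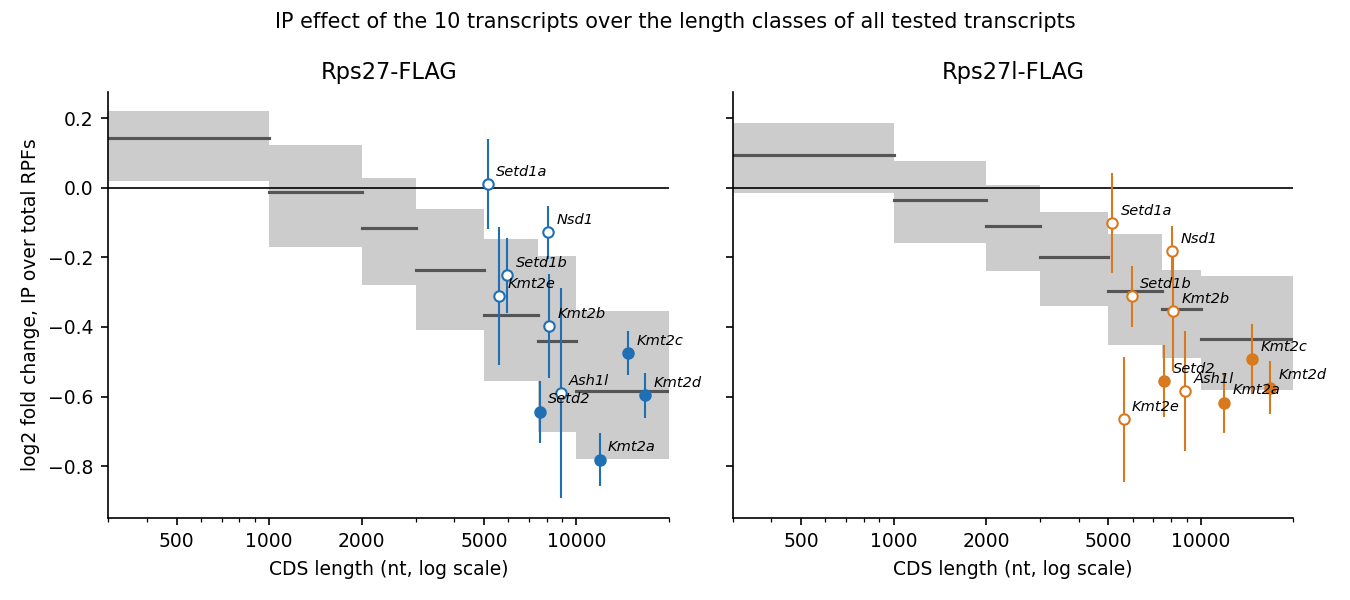
Fitted log2 fold change of IP against total RPFs (bars: standard error) against CDS length in nt on a log scale, for *Rps27-FLAG* and *Rps27l-FLAG*. Filled points passed an adjusted p of 0.05. Grey boxes span the interquartile range and dark lines the median of all tested transcripts in each length class, with the shortest and longest class drawn to the plot's edge. *Setd1a* and *Nsd1* lie above their class in both lines.

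With the length trend of each library removed, 0 members passed in either line, with 4 and 2 below an unadjusted p of 0.05. On that scale 0.268% of all transcripts passed in *Rps27-FLAG* and 0.0793% in *Rps27l-FLAG*. Medians over the members became 0.03 and -0.08. With the clone as a block in addition, *Kmt2a* and *Setd2* fell and *Nsd1* rose in both lines, relative to transcripts of their length. In *Rps27-FLAG* *Kmt2a* was at -0.25 (SE 0.07, adjusted p 0.00171) and *Setd2* at -0.23 (SE 0.04, adjusted p 8.30e-08). *Nsd1* was at 0.30 (SE 0.03, adjusted p 6.14e-20) and *Setd1a*, called only in this line, at 0.32 (SE 0.08, adjusted p 7.28e-04). In *Rps27l-FLAG* *Kmt2a* was at -0.21 (SE 0.07, adjusted p 0.0239), *Setd2* at -0.22 (SE 0.04, adjusted p 3.91e-06) and *Nsd1* at 0.16 (SE 0.03, adjusted p 2.79e-05). In that fit 13% of all transcripts fell and 18.4% rose in *Rps27-FLAG*, and 8.05% fell and 14.7% rose in *Rps27l-FLAG*. *Kmt2c*, *Kmt2d*, *Kmt2b*, *Setd1b*, *Kmt2e* and *Ash1l* were not called in this fit in either line.

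Whether the IP effect differed between Rps27-ribosomes and Rps27l-ribosomes was tested in 1 fit over the 12 tagged libraries with the clone within each line. At an adjusted p of 0.05 and a log2 difference of more than 0.25 in either direction, 0 of 10 members passed, where 0.565% of all transcripts did. None was below an unadjusted p of 0.05 (12.1% of all), and voom and DESeq2 called 0 as well. Of the 466 long transcripts 25 rose and 1 fell. The largest differences, of *Rps27l-FLAG* minus *Rps27-FLAG*, were -0.35 for *Kmt2e* (95% interval -0.80 to 0.10, adjusted p 0.594) and 0.16 for *Kmt2a* (-0.04 to 0.36, adjusted p 0.588). For *Setd2* the difference was 0.09 (-0.02 to 0.20, adjusted p 0.523), which was the lowest adjusted p of the members.

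The intervals belong to this fit, in which the CDS length trend was not removed. For *Nsd1* the interval ran from -0.13 to 0.03, for *Kmt2c* from -0.13 to 0.11, for *Kmt2d* from -0.10 to 0.15 and for *Kmt2b* from -0.09 to 0.16. Those of *Setd2* and *Setd1b* (-0.23 to 0.11) also lay within 0.25 of 0, whereas those of *Kmt2a*, *Kmt2e*, *Setd1a* (-0.34 to 0.13) and *Ash1l* (-0.29 to 0.34) reached beyond it. With the length trend removed, 8 of 10 differences were below 0. Their median was -0.12, against -0.00052 over all tested transcripts, and the lowest adjusted p in edgeR was 0.0699. *Nsd1* (-0.14), *Kmt2c* (-0.14) and *Kmt2d* (-0.11) then lay below the intervals given here. The clones of the 2 lines did not overlap for *Kmt2a* and *Setd2*, which were higher in *Rps27l-FLAG* (9.07% of all transcripts were), nor for *Kmt2e* and *Nsd1*, which were lower (7.13%). Of the 466 long transcripts 142 lay wholly higher and 21 wholly lower, so this was common among long transcripts of other genes as well. With the length trend removed the differences were 0.044 for *Kmt2a*, 0.0070 for *Setd2*, -0.41 for *Kmt2e* and -0.14 for *Nsd1*.

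**Figure D5:**
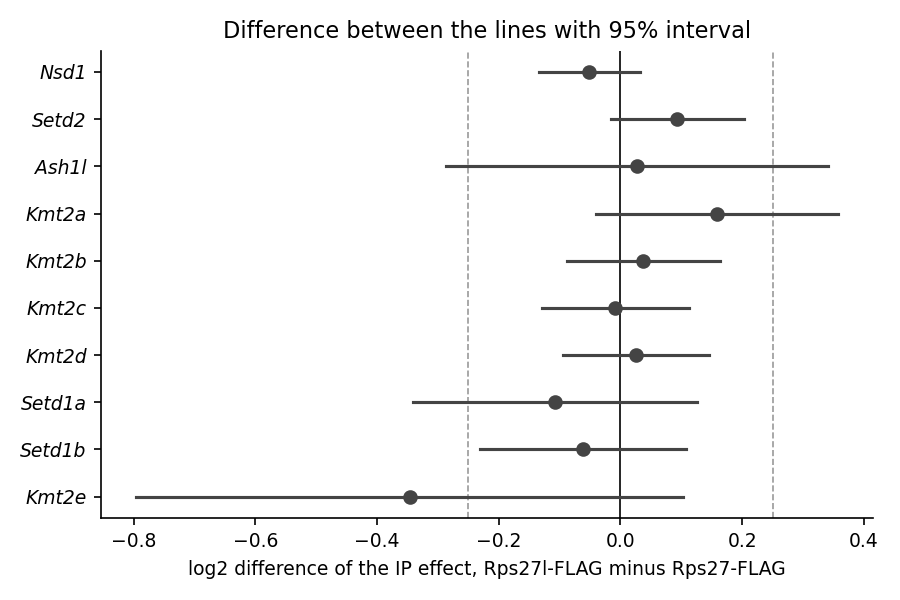
Difference of the log2 IP effect, *Rps27l-FLAG* minus *Rps27-FLAG*, with its 95% interval for each methyltransferase, and dashed lines at the limit of 0.25 in either direction. All 10 intervals include 0, and that of *Kmt2e* is the widest, from -0.80 to 0.10.

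The proteins that work with these enzymes were read from the same fits. Of the COMPASS core (*Wdr5*, *Rbbp5*, *Ash2l*, *Dpy30*), with a median CDS of 1311 nt, 0 of 4 passed in either tagged line by edgeR, voom or DESeq2, and 1 was below an unadjusted p of 0.05 in each line. *Wdr5*, the scaffold of the core, was at -0.18 (SE 0.06, adjusted p 0.14) and *Dpy30* at 0.20 (SE 0.10, adjusted p 0.269) in *Rps27-FLAG* IP against total RPFs. Of the catalytic subunits that share this core, *Kmt2a* was at -0.78, *Setd1b* at -0.25 and *Setd1a* at 0.01 there. Among 9 further subunits, each found in some of the complexes but not in all, 3 fell and 1 rose in *Rps27-FLAG*. *Kdm6a*, the H3K27 demethylase that sits with *Kmt2c* and *Kmt2d*, was at -0.58 (adjusted p 0.011) and *Hcfc1*, a cofactor of the *Setd1* and *Kmt2a* complexes, at -0.52 (adjusted p 0.00493). *Paxip1* was at -0.32 (adjusted p 0.0486) and *Psip1* at 0.22 (adjusted p 0.0443). In *Rps27l-FLAG* 2 fell, *Kdm6a* (-0.48, adjusted p 0.0447) and *Hcfc1* (-0.46, adjusted p 0.00429). Both voom and DESeq2 gave 2 that fell in each line. With the clone as a block 1 of the 4 core genes rose and 1 fell in each line. Of the 9 further subunits 1 rose and 5 fell in each line in that fit. Over all 10085 tested transcripts the blocked fit gave 1846 that rose and 2308 that fell in *Rps27-FLAG*. In *Rps27l-FLAG* it gave 1209 that rose and 1919 that fell.

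Without a block, where 5.34% and 2.27% of all transcripts fell in *Rps27-FLAG* and *Rps27l-FLAG*, the enzymes that remove the marks differed in count. Of 5 H3K4 demethylases 3 fell in *Rps27-FLAG*, *Kdm5a* (-0.43, adjusted p 0.0163), *Kdm5c* (-0.30, adjusted p 0.0297) and *Kdm5b* (-0.30, adjusted p 0.0269), and in *Rps27l-FLAG* *Kdm5a* and *Kdm5c* did. Their median CDS was 4635 nt, and with the length trend removed their median was 0.00 in *Rps27-FLAG* and -0.06 in *Rps27l-FLAG*. Of 5 H3K36 demethylases 0 passed in either line by edgeR, voom or DESeq2, with 1 below an unadjusted p of 0.05 in each. *Kdm2b*, the lowest p of these, was at -0.25 (adjusted p 0.119) in *Rps27-FLAG* and at -0.26 (adjusted p 0.24) in *Rps27l-FLAG*. With the clone as a block 3 of 5 H3K4 and 2 of 5 H3K36 demethylases fell in *Rps27-FLAG*, where 22.9% of all transcripts did. In *Rps27l-FLAG* 4 of 5 and 3 of 5 fell, where 19% of all did.

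Of 11 readers and partners of H3K36 methylation, which include *Brpf1*, *Dnmt3b* and *Morf4l1*, 0 passed in either line by any of the 3 tools, with 1 below an unadjusted p of 0.05 in each. Their medians were -0.01 in both lines at a median CDS of 2301 nt. Of 9 other SET and MYND methyltransferases 1 fell in *Rps27-FLAG*, *Smyd5* (-0.29, adjusted p 0.0442), which neither voom nor DESeq2 called, and 0 in *Rps27l-FLAG*, with 2 below an unadjusted p of 0.05. Of 12 methyltransferases of other histone lysines 0 passed by edgeR or voom in either line, with 3 and 2 below an unadjusted p of 0.05, and DESeq2 called 0 in *Rps27-FLAG* and 1 in *Rps27l-FLAG*. With the clone as a block 3 of the 11 readers and partners rose and 3 fell in *Rps27-FLAG*, and 3 rose and 0 fell in *Rps27l-FLAG*. Of the 9 other SET and MYND methyltransferases 1 rose and 3 fell in each line in that fit. Of the 12 methyltransferases of other lysines 2 rose and 3 fell in *Rps27-FLAG*, and 0 rose and 2 fell in *Rps27l-FLAG*. In the total RPFs without a block 0 genes of any of these lists passed in edgeR, as for all tested transcripts.

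2 other families of large proteins give a scale for the members. The PI3K-like kinases, such as *Prkdc*, *Atm*, *Trrap* and *Smg1*, have a median CDS of 10089 nt, and 6 of 6 fell in both lines, with a median of -0.77 for *Rps27-FLAG* and one of -0.52 for *Rps27l-FLAG*. 3 of these 6 differed between the lines (*Prkdc* by 0.29, *Atr* by 0.26 and *Smg1* by 0.26 on the log2 scale) in edgeR and in voom but 0 in DESeq2, against 0 of 10 methyltransferases. The Chd remodelers, with a median CDS of 6168 nt, had 2 of 9 that fell in *Rps27-FLAG* (*Chd6* at -0.44 and *Chd9* at -0.43) and 0 of 9 in *Rps27l-FLAG*, with 4 below an unadjusted p of 0.05, 0 by voom and 1 by DESeq2. With the clone as a block 5 of the 9 Chd remodelers fell and 1 rose in each line, and 6 of 6 kinases fell in each. Whether the families differed from each other was not tested.

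The 5 transcripts whose log2 normalized CPM most resembled the mean of the members over the 15 libraries were *Cenpe* (Pearson r = 0.987), *Ibtk* (0.985), *Ints2* (0.978), *Ubr4* (0.97) and *Aspm* (0.97). Their CDSs were 7416, 4059, 3597, 15543 and 9369 nt. The libraries share replicate sets and clones, so that r describes these 15 libraries only. They include IP and total RPFs, so r also takes in the difference between these. Within groups the members did not share 1 pattern. Their deviations from the group means correlated at r from 0.88 (*Kmt2e* and *Nsd1*) to -0.91 (*Kmt2b* and *Ash1l*).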

How the data were processed

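Total RPFs of 9 clones and IP RPFs of 6 were analysed, grouped by the sample labels. The authors trimmed reads (cutadapt 2.4), removed duplicates by molecular identifiers (UMI-tools 1.0.1), discarded rRNA, tRNA and snRNA reads, aligned with Bowtie2 2.3.4.3 to mouse transcripts (GENCODE VM20, GRCm38) and kept unique alignments. They deposited raw counts of A sites per CDS, without the first 15 and last 5 codons. Keeping unique alignments removes reads from repeats that transcripts share, and leaving out CDS ends removes initiating and terminating ribosomes. All 15 count columns were used, and 0 were left out. GENCODE M21 gave symbols, positions and CDS lengths, and in it 14 of 21727 transcripts have no entry.

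Mitochondrially encoded transcripts (13) were dropped, a transcript was kept where its CPM exceeded 2 in no fewer than 14 of the 15 libraries (10085, at least 98.7% of the counts in each library), and TMM factors were computed separately for IP and total libraries. Counts were tested in R 4.3.3 with edgeR 4.0.16 (quasi-likelihood F test, Benjamini-Hochberg adjustment over all tested transcripts, threshold 0.05), with designs as in the study's methods: line for total RPFs, fraction for IP against total, and line, clone and fraction for the difference between lines (absolute log2 fold change over 0.25, *Tmod3* left out of counts). Standard errors are the log2 fold change over the root of F, and 95% intervals use the degrees of freedom of the test. Ratios of single clones used 0.5 added counts. For all 6 tagged clones the deviations of the IP and total library from their group means correlated (r 0.483 to 0.798), and the labels name the shared clone, so that replicate numbers pair these samples. The methods pool the RPFs of a replicate number for library preparation, and total libraries of the same number correlated in this way at r -0.167 to 0.719 over 9 pairs. No pair of libraries of a group agreed within sampling noise (chi-squared per degree of freedom 1.78 or more). P-values of fits without a block measure the spread between the libraries of a group, which come from different clones. Those of fits with a clone or replicate block measure the spread left after the block is taken out. edgeR also shares its estimate of the spread over all tested transcripts, with 115.5 degrees of freedom in the fit of the difference between lines. The fits of IP against total RPFs with the clone block each used the libraries of 1 line. Their small p-values rest on the clones of that line together with the spread shared over transcripts, not on those clones alone.

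The alternatives were voom with limma 3.58.1, DESeq2 1.42.0, its size factors, TMM over all libraries, other filters, the clone or the replicate number as a block, removal of the CDS length trend per library (loess, span 0.5), and each clone left out. Tests were tried on simulated data. The members, lists and tests were chosen with earlier results of these data known. All members are named in each comparison of the fits. Of each other list up to 4 genes past the threshold with the largest absolute log2 fold change were eligible, or, with none, the 2 with the lowest p, and the 5 transcripts most correlated with the members' mean. *Pagr1a* was not analysed here. Annotation and figures were made with pandas 2.3.3 and matplotlib 3.10.9 in Python 3.11.15.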

Additional observations from a re-analysis of the deposited data

How the results depend on the processing

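The IP comparisons each called 4 members under voom, DESeq2, its size factors, TMM over all libraries and both other filters. The total RPF comparisons and the difference between lines called 0 under these. With the pairing used as a replicate block (clone), 8 members passed in *Rps27-FLAG* and 9 in *Rps27l-FLAG*, and *Setd1a* in *Rps27-FLAG* turned to -0.0010 on the log2 scale. With the replicate number as a block 1 member passed in *Rps27l-FLAG* against WT. Without the block the difference between lines called 0. With TMM over all libraries that difference turned to 0.00090 for *Kmt2c*. With the CDS length trend removed 0 members passed in either IP comparison. Several log2 values then turned sign, since this setting subtracts the length trend of each library. In *Rps27-FLAG* IP against total RPFs they were 0.035 for *Kmt2b*, 0.095 for *Kmt2c*, 0.0049 for *Kmt2d*, 0.032 for *Kmt2e*, 0.11 for *Setd1b* and 0.30 for *Nsd1*. With the clone block in addition these were 0.041, 0.093, 0.0025, 0.030, 0.10 and 0.30. In *Rps27l-FLAG* they were 0.16 for *Setd1a* and 0.16 for *Nsd1*, and 0.15 and 0.16 with the block. In the difference between lines they were -0.052 for *Kmt2b*, -0.11 for *Kmt2d* and -0.071 for *Ash1l*. For total RPFs they were 0.034 for *Setd1a*, 0.023 for *Setd2*, 0.036 for *Nsd1* and 0.010 for *Ash1l* in *Rps27-FLAG* against WT, and 0.031 for *Kmt2a*, 0.022 for *Kmt2c*, 0.056 for *Kmt2d*, 0.027 for *Kmt2e* and 0.023 for *Setd1b* in *Rps27l-FLAG* against WT. With single clones left out, the count ranged from 0 to 5 in *Rps27-FLAG* and from 0 to 4 in *Rps27l-FLAG* IP against total RPFs and stayed 0 elsewhere. All of these fits have fewer samples, also the fit without replicate 1 of *Rps27-FLAG*, which gave the count of 5. The cause of the changes in count was not tested. Log2 values that turned sign when a clone was left out had ranges of -0.063 to 0.13 for *Kmt2c*, -0.15 to 0.047 for *Kmt2e*, -0.11 to 0.11 for *Setd1a*, -0.12 to 0.090 for *Setd2*, -0.098 to 0.063 for *Nsd1* and -0.39 to 0.17 for *Ash1l* in *Rps27-FLAG* against WT. In *Rps27l-FLAG* against WT the ranges were -0.083 to 0.0065 for *Kmt2a*, -0.12 to 0.077 for *Kmt2c*, -0.056 to 0.0088 for *Kmt2d*, -0.097 to 0.10 for *Kmt2e*, -0.015 to 0.22 for *Setd1a* and -0.063 to 0.046 for *Setd1b*. Between the tagged lines they were -0.040 to 0.11 for *Kmt2e* and -0.0035 to 0.21 for *Setd1a*. In *Rps27-FLAG* IP against total RPFs the range was -0.026 to 0.064 for *Setd1a*. In the difference between lines the ranges were -0.036 to 0.034 for *Kmt2c*, -0.0089 to 0.052 for *Kmt2d* and -0.069 to 0.13 for *Ash1l*. *Kmt2e* and *Ash1l* had the fewest counts, 31 to 124 in IP libraries. In *Rps27-FLAG* IP against total RPFs the SE of *Ash1l* was 0.30 without the clone block and 0.12 with it. For *Kmt2e* it was 0.20 and 0.15. What set these errors was not tested.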
